A study of Mus musculus with 6 samples.

Results

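The 10 genes described here carry out the synthesis, breakdown and sensing of prostaglandin E2 (PGE2): Pla2g4a, Ptgs1, Ptgs2, Ptges, Ptges2, Ptges3, Hpgd, Ptger1, Ptger2 and Ptger4. They were chosen by name as the drug target pathway of sulindac sulfide (SS), and all 10 were among the 13730 genes of the count table. SS is the active metabolite of sulindac and blocks the activity of both cyclooxygenases, COX-1 and COX-2. RNA-seq measures the messages of these enzymes and receptors, not their activity and not PGE2 itself.

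In this pathway, cytosolic phospholipase A2 frees arachidonic acid from membranes, the cyclooxygenases turn it into prostaglandin H2, and the PGE synthases turn that into PGE2. PGE2 acts on G protein-coupled receptors of the EP family and is inactivated by 15-hydroxyprostaglandin dehydrogenase. In tumors, COX-2 and PGE2 are known for promoting inflammation and for dampening T-cell and dendritic cell responses, and the dehydrogenase is known for limiting PGE2.

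Tumors were grown from C0321, a mouse triple-negative breast cancer (TNBC) cell line made from a Lfng-/- mouse on the FVB background. Its cells were placed with Matrigel in the mammary fat pad of syngeneic female FVB mice aged 6 to 10 weeks. Dosing began once tumors were palpable: the SS group was given a daily oral dose of 60 mg/kg, over 14 days. The sample labels write the drug as "Sulindac Sulfate". Control mice are labelled only "Control", and the series text names saline. Both groups thus share a single cell line, its Lfng deletion and its host strain, and the host immune system is intact. Each group had 3 tumors. The labels number the tumors without describing the mice one by one, so p-values measure the spread between these tumors.

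Libraries held between 8468914 and 24441522 counts, and the floor for a gene with no count was taken as 3 counts, which stand for 0.123 to 0.354 CPM (counts-per-million, scaled by library size). The correlation of log2 CPM averaged 0.945 within groups and 0.948 between groups, so tumors of one group were no more alike than tumors of different groups. The estrogen receptor gene Esr1 was at 4.47 to 6.40 CPM, the progesterone receptor gene Pgr at 0 to 3.81 CPM and Erbb2 at 17.0 to 22.3 CPM. The claudin genes Cldn3, Cldn4 and Cldn7 all stayed at or below 10.4 CPM, and the mesenchymal gene Vim was at 5868 to 8610 CPM. The adipocyte markers Adipoq, Plin1, Fabp4, Cidec and Lep summed to between 0.041 and 46.3 CPM in control tumors and between 0.68 and 19.2 CPM in SS-treated tumors, highest in control tumor 1.

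The promoter sequences of the cyclooxygenase genes are shown because Ptgs1 and Ptgs2, which make the same product, differ in the DNA just upstream of their transcripts. Both are the 250 bases before the transcript start on the plus strand, from RefSeq on GRCm38.p6, at chr2:36230176-36230425 for Ptgs1 and at chr1:150099781-150100030 for Ptgs2. Capitals mark matches to any of 5 short motifs searched on both strands.
Ptgs1: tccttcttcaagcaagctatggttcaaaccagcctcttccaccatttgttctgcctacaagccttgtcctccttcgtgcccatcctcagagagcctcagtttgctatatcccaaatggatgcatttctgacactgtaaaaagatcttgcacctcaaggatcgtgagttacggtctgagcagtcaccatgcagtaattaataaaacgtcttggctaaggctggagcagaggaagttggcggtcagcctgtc
Ptgs2: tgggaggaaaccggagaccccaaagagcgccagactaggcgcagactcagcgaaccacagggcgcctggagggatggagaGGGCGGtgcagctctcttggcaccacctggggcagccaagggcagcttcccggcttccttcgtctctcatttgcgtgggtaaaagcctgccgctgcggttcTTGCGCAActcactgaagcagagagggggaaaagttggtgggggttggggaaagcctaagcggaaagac
GC content was 48.0% for Ptgs1 and 61.6% for Ptgs2, against a median of 52.4% over 32851 promoters of the same length. The motifs were TATAAA, the cyclic AMP (cAMP) response half-site CGTCA, the E-box CACGTG, the C/EBP palindrome TTGCGCAA and the GC box GGGCGG. In the Ptgs2 promoter, GGGCGG began 170 bases and TTGCGCAA 69 bases before the start. Past the printed stretch, CGTCA and CACGTG overlapped each other 14 and 17 bases after the Ptgs2 start. The printed Ptgs1 stretch held none of these letters. Over all windows of 300 bases around transcript starts, 13.6% held TATAAA, 20.8% CGTCA, 7.15% CACGTG, 0.183% TTGCGCAA and 35.7% GGGCGG. Of the 10 genes, 9 had a promoter in the RefSeq table. A match in these windows is a description and not a binding site.

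Ptger4 and Pla2g4a each had 2 RefSeq transcripts in the table, and the transcripts of each gene begin their proteins differently. The first 45 coding bases of each are printed 5′ to 3′, read from the GRCm38 reference on the minus strand, with the start codon in capitals.
Ptger4 NM_008965: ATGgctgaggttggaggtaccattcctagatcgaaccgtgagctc
Ptger4 NM_001136079: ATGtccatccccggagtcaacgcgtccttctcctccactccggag
Pla2g4a NM_008869: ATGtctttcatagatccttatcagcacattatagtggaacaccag
Pla2g4a NM_001305632: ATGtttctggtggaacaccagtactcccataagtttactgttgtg
For Ptger4, on chromosome 15 from 5233399 to 5244188, NM_008965 begins its coding sequence in exon 1 of 3 at position 5243698, and NM_001136079 in exon 2 of 3 at position 5243136. Their first exons end at splice sites 63 bases apart, and their coding lengths of 1539 and 1464 bases differ by 25 codons. For Pla2g4a, on chromosome 1 from 149829619 to 149961291, NM_008869 starts coding in exon 2 of 18 and NM_001305632 in exon 1 of 17. The first exons of the Pla2g4a transcripts do not overlap, and the coding lengths of 2244 and 2220 bases differ by 8 codons.

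None of the 9 PGE2 pathway genes that could be tested differed between control and SS-treated tumors beyond the spread between tumors, and Hpgd, with few counts, was read apart. Of the 10 genes, 9 passed the filter on low counts and were tested with edgeR's quasi-likelihood test, and Hpgd did not pass. None of the 9 had an adjusted p-value under 0.05, where 0.0% of all 10902 genes tested did, and none had an unadjusted p under 0.05, where 6.36% of all genes did. DESeq2 on the same genes also called none of the 9, where 0.58% of the genes it adjusted and 6.32% of genes before adjustment were called. The smallest unadjusted p of the 9 was 0.144 and the smallest adjusted p was 0.836, both for Ptgs1. The control and SS values overlapped for every one of the 10 genes, where the groups did not overlap for 12.9% of all genes. The log2 fold change (SS over control) was below 0 for 7 of the tested genes and above 0 for 2, where 50.3% of all genes tested were below 0. The median over all genes tested was -0.0009, and over the 9 genes it was -0.11. This median was -0.31 without SS tumor 1 and -0.04 without control tumor 3 or without SS tumor 3. The 95% interval of the difference lay within a log2 fold change of 1 in either direction for 3 genes, Pla2g4a, Ptges3 and Ptger1, and was wider for the other 6. In these bulk tumors, fewer cells of a type and less RNA per cell cannot be told apart.

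**Figure D1:**
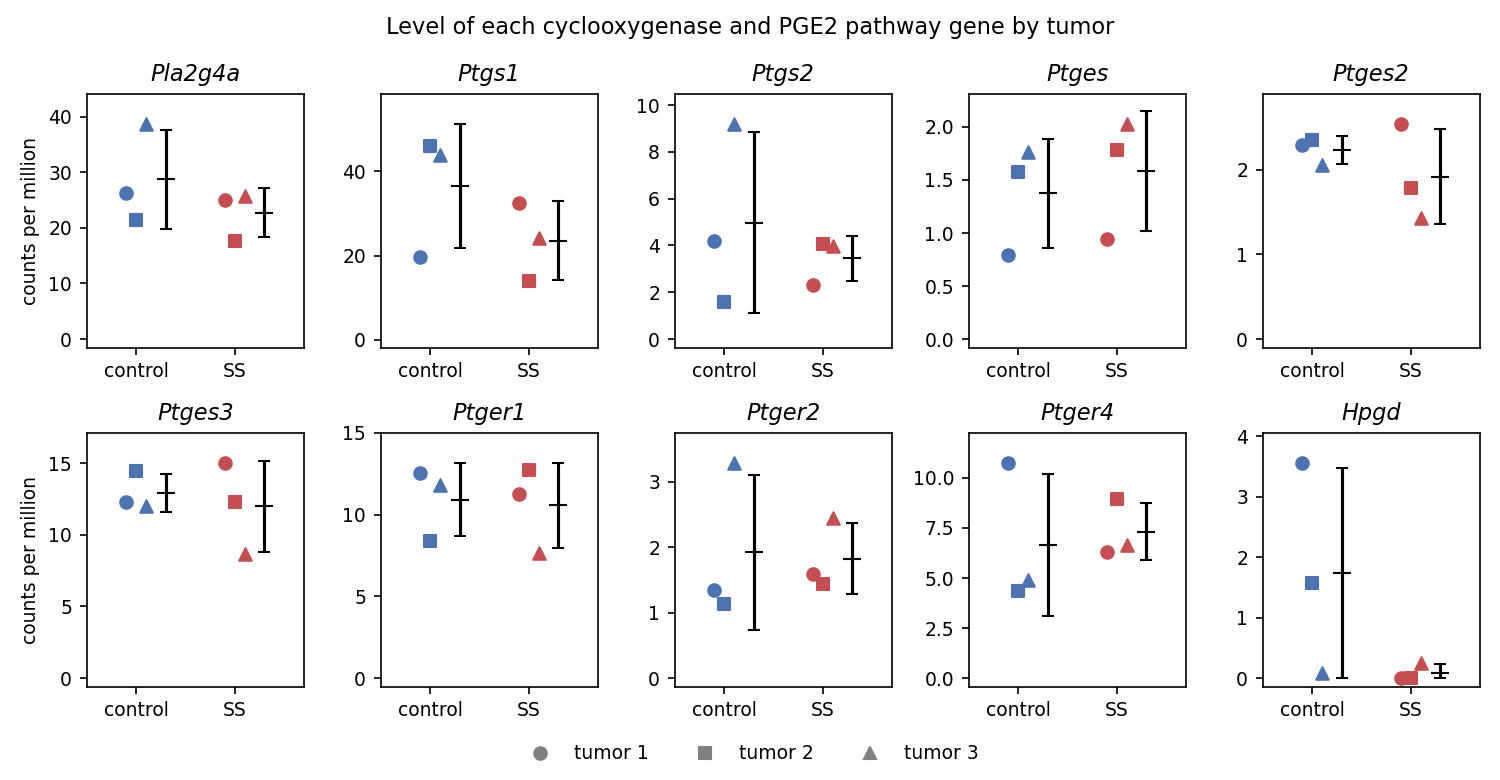
CPM of each of the 10 PGE2 pathway genes in the 3 control tumors (blue) and 3 SS-treated tumors (red), each panel with its own scale, with black bars for the mean ± SD of each group (cut at 0). The groups overlap in every panel, and Hpgd is at 0 in SS tumors 1 and 2.

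Scaled by exon length, Ptgs1 had the highest mean of the 10 messages in control tumors, at 12.7 ± 5.11 CPM per kb (SD, n = 3), followed by Pla2g4a at 10.1 ± 3.12. Ptges3 at 6.62 ± 0.68, Ptger1 at 5.33 ± 1.08 and Ptger4 at 2.01 ± 1.07 CPM per kb came next. Ptges2 at 1.15 ± 0.083, Ptgs2 at 1.12 ± 0.87 and Hpgd at 1.03 ± 1.03 CPM per kb lay close together, above Ptger2 at 0.52 ± 0.32 and Ptges at 0.38 ± 0.14. The control values of neighbours in this order overlapped for Ptgs1 and Pla2g4a, and for every pair of neighbours from Ptges2 down to Ptges. They did not overlap between Pla2g4a and Ptges3, Ptges3 and Ptger1, Ptger1 and Ptger4, or Ptger4 and Ptges2. By group mean, the first 7 genes held the same ranks in SS-treated tumors, and Hpgd moved from rank 8 to rank 10. In single tumors, Pla2g4a was above Ptgs1 in control tumor 1 (9.18 against 6.86 CPM per kb) and SS tumor 3 (9.02 against 8.45). In SS tumor 2, Ptges3 (6.27), Ptger1 (6.23) and Pla2g4a (6.17) were all above Ptgs1 (4.86). In the other tumors Ptgs1 was highest. SS values also overlapped between Pla2g4a and Ptges3 and between Ptges3 and Ptger1. COX-1 message was more abundant than COX-2 message in both groups.

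Pla2g4a encodes cytosolic phospholipase A2, which supplies arachidonic acid to the pathway. It was at 26.2, 21.4 and 38.7 CPM in control tumors 1, 2 and 3 and at 24.9, 17.6 and 25.7 CPM in SS tumors 1, 2 and 3. Control tumors 1 and 3 lay above all SS values, control tumor 2 lay among them, and the lowest was SS tumor 2. The log2 fold change was -0.34 (SE 0.25, 95% interval -0.92 to 0.25, edgeR adjusted p = 0.871). It was -0.06 without control tumor 3. Pla2g4a lies 138.741 kb from Ptgs2 on chromosome 1.

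Ptgs1 encodes COX-1, the isoform that most tissues carry at rest, and lies on chromosome 2 from 36230426 to 36252272 on the plus strand. It measured 19.7, 46.1 and 43.8 CPM in control tumors, against 32.6, 13.9 and 24.2 CPM in SS tumors. Control tumors 2 and 3 were above every SS tumor, and control tumor 1 was below SS tumors 1 and 3. The mean level was 36.5 ± 14.7 CPM in control and 23.6 ± 9.33 CPM in SS tumors (SD, n = 3). The log2 fold change was -0.63 (SE 0.39, 95% interval -1.53 to 0.27, edgeR adjusted p = 0.836). The exact permutation test of the means gave p = 0.3 (two-sided), where 0.1 is the smallest p that 3 against 3 tumors allow. Without control tumor 1, the log2 fold change was -0.92 with an unadjusted edgeR p of 0.021 (adjusted p = 0.552), and 877 of all genes then had an unadjusted p under 0.05 in place of 693. It was -0.43 without control tumor 2 and -0.37 without SS tumor 2, with edgeR adjusted p-values of 0.958 and 0.918. Library depth moved with Ptgs1: control tumors 2 and 3, with the most Ptgs1, were the deepest libraries at 20486368 and 24441522 counts, and SS tumor 2, with the least, was the shallowest at 8468914. After every library was thinned to the depth of the smallest, the Ptgs1 log2 fold change was -0.53 (edgeR adjusted p = 0.860). Thinning was a single random draw that keeps each gene's expected CPM, so it cannot tell whether depth had a part in the Ptgs1 values, which was not tested. Platelets are rich in COX-1, and 5 of 6 platelet markers were in the table. Their summed level was 24.0, 33.0 and 38.8 CPM in control tumors and 24.7, 30.5 and 30.9 CPM in SS tumors. Most of this sum was Itgb3, at 19.7, 28.5 and 32.8 CPM in control tumors and 22.1, 26.0 and 24.2 CPM in SS tumors, a gene that other cells also use. The more specific Pf4 was at 2.68, 2.01 and 3.07 CPM against 1.74, 3.10 and 4.14 CPM. Gp9 was at 0 in some tumors, and the part of platelets in the Ptgs1 values was not tested.

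Ptgs2 encodes COX-2, the inducible isoform, and lies on chromosome 1 from 150100031 to 150108235 on the plus strand. It was at 4.18, 1.57 and 9.18 CPM in control tumors and at 2.32, 4.05 and 3.97 CPM in SS tumors. The control tumors held both the lowest and the highest value, 5.84-fold apart, and all SS tumors fell between them. The log2 fold change was -0.54 (SE 0.61, 95% interval -1.96 to 0.87, edgeR adjusted p = 0.918). It was 0.27 without control tumor 3, so that this tumor set the sign, and it was -0.07 with limma-voom and sample weights on all 6 tumors. The ratio of Ptgs2 to Ptgs1 counts was 0.214, 0.035 and 0.210 in control tumors and 0.072, 0.294 and 0.165 in SS tumors. This ratio overlapped between the groups (exact permutation p = 0.7, adjusted over 3 ratios p = 0.9).

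**Figure D2:**
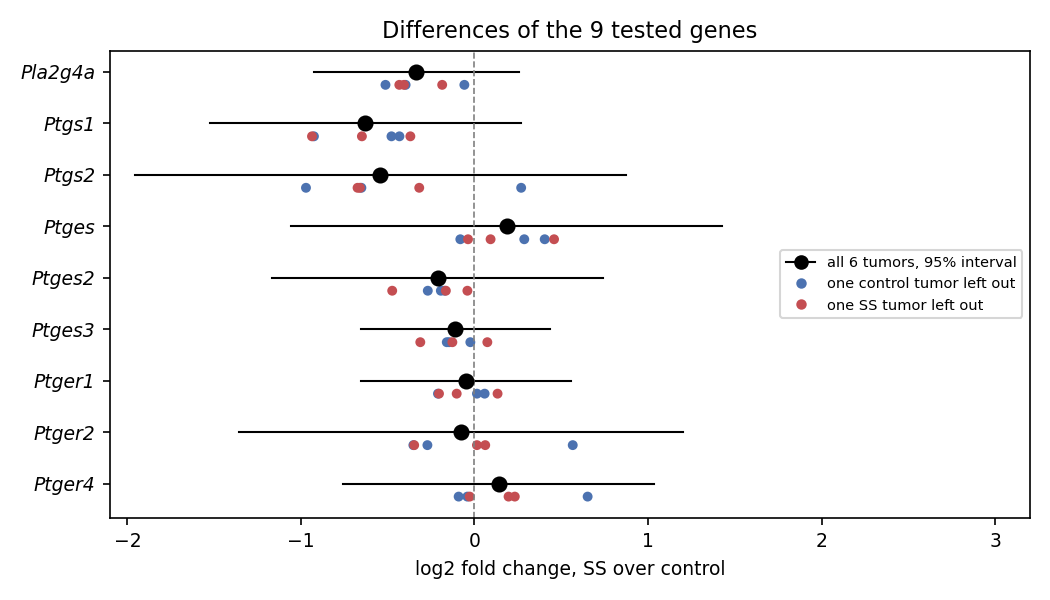
Log2 fold change (SS over control) of the 9 tested genes with its 95% interval (black), and the value with each control tumor (blue) or SS tumor (red) left out. Every interval spans 0, and Ptgs2 changes from -0.54 to 0.27 when control tumor 3 is left out.

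The levels of the 3 PGE synthase genes overlapped between the groups. Ptges, the inducible microsomal PGE synthase that is often coupled to COX-2, was at 0.79, 1.57 and 1.76 CPM in control tumors and at 0.94, 1.79 and 2.03 CPM in SS tumors. It was among the lowest of the 10 genes, and its log2 fold change was 0.19 (SE 0.53, 95% interval -1.06 to 1.43, edgeR adjusted p = 0.959). Ptges2, a membrane-associated PGE synthase, was at 2.29, 2.36 and 2.05 CPM in control tumors and at 2.54, 1.79 and 1.44 CPM in SS tumors. The log2 fold change of Ptges2 was -0.21 (SE 0.41, 95% interval -1.16 to 0.74, edgeR adjusted p = 0.938), and ran from -0.47 to -0.04 with 1 tumor left out. Ptges3, the cytosolic PGE synthase that is also the Hsp90 co-chaperone p23, was at 12.3, 14.5 and 12.1 CPM in control tumors and at 15.0, 12.3 and 8.69 CPM in SS tumors. SS tumors held both its highest and its lowest value, and its log2 fold change of -0.11 (SE 0.23, 95% interval -0.65 to 0.43) was among the most precise of the set.

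Hpgd, which encodes the 15-hydroxyprostaglandin dehydrogenase that inactivates PGE2, was the gene with the least message in SS-treated tumors. It lies on chromosome 8 from 56294552 to 56321047 on the plus strand. Its counts were 45, 32 and 2 in control tumors and 0, 0 and 3 in SS tumors, which is 3.55, 1.57 and 0.082 CPM against 0, 0 and 0.25 CPM. A count of 0 allows up to 0.219 CPM in SS tumor 1 and 0.354 CPM in SS tumor 2. Control tumors 1 and 2 stood far above every SS tumor, whereas control tumor 3, the deepest library, and SS tumor 3 had 2 and 3 counts, at or under the floor of 3, so that their order is not resolved. Pooled over tumors and scaled by library size, the control level was 15.6 times the SS level (exact 95% interval 5.15 to 77.3 from 79 and 3 counts, counting error only). This ratio was 8.62 (2.71 to 43.9) without control tumor 1, 26.4 (8.72 to 131.0) without control tumor 3, and rested on 79 against 0 counts without SS tumor 3. Across tumors, the overlap of the groups rests on those 2 low counts, and the exact permutation test gave p = 0.2 (two-sided), where 3 against 3 tumors cannot go below 0.1.

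Hpgd was left out of the main test because too few tumors reached the count minimum. With no filter on low counts, edgeR gave Hpgd a log2 fold change of -4.16 with an unadjusted p of 0.030 (adjusted p = 0.829), where 5.75% of all 13730 genes had an unadjusted p under 0.05. DESeq2 with no filter gave -4.32 with an unadjusted p of 0.0089 (adjusted p = 0.446), where 6.1% of genes had an unadjusted p and 0.293% an adjusted p under 0.05. Neither call passed adjustment. Control tumor 1, with the most Hpgd, had the highest summed markers of several cell types. The T-cell, adipocyte, dendritic and mast cell sums there were mostly Cd3e (45.8 CPM), Plin1 (37.7 CPM), Ccr7 (10.3 CPM) and Hdc (18.4 CPM). Adipoq and Cidec were highest in SS tumor 2, at 0.60 and 0.48 CPM, and the other adipocyte markers in control tumor 1. The macrophage sum was lowest in control tumor 1, at 721.3 CPM. Fibroblast and neutrophil sums there lay within the range of the other tumors. The T-cell markers in the table, 2 of 6, summed to 47.8, 12.6 and 8.03 CPM in control tumors and to 20.7, 12.6 and 4.31 CPM in SS tumors, with Cd4 at 0 in SS tumor 2. The summed adipocyte markers were 46.3, 0.44 and 0.041 CPM in control tumors and 12.5, 19.2 and 0.68 CPM in SS tumors. Dendritic cell markers (4 of 6 in the table, Xcr1 at 0 in some tumors) summed to 13.7 CPM in control tumor 1 and to 2.31 to 7.62 CPM in the other 5 tumors, and mast cell markers (3 of 8, Tpsb2 at 0 in some tumors) to 23.1 and 6.82 to 12.7 CPM. Both sums were lowest in control tumor 2, which had the second most Hpgd. Epithelial markers (6 of 6) summed to 701.6 CPM in control tumor 1 and to 492.7 to 660.3 CPM in the others. Of these, the basal keratin gene Krt5 was at 73.0, 1.13 and 1.43 CPM in control tumors and at 33.9, 26.7 and 0 CPM in SS tumors, whereas Krt8 and Krt18 were highest in control tumor 2 and Epcam and Cdh1 in SS tumor 2. The part of these cells in the Hpgd values was not tested. The ratio of Hpgd to the summed PGE synthase counts, with 0.5 added to both, was 0.233, 0.087 and 0.0065 in control tumors and 0.0020, 0.0037 and 0.024 in SS tumors. The values of SS tumors 1 and 2 are set by the added 0.5, since both had 0 Hpgd counts, and the groups overlapped (exact permutation p = 0.2, adjusted over 3 ratios p = 0.6).

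The levels of the receptor genes also overlapped between the groups. Ptger1 encodes EP1, which signals through calcium. It was at 12.6, 8.40 and 11.8 CPM in control tumors and at 11.2, 12.7 and 7.68 CPM in SS tumors. Its log2 fold change was -0.05 (SE 0.26, 95% interval -0.66 to 0.56, edgeR adjusted p = 0.976). SS tumors held both its highest and its lowest value. The libraries were stranded, but whether strand was used in counting is not given in the sources used here.

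Ptger2 and Ptger4 encode EP2 and EP4, the receptors that raise cAMP. Ptger2 was at 1.34, 1.13 and 3.28 CPM in control tumors and at 1.59, 1.43 and 2.45 CPM in SS tumors. Tumor 3 was the highest of each group, and the log2 fold change was -0.08 (SE 0.55, 95% interval -1.36 to 1.20, edgeR adjusted p = 0.982). Ptger4 was at 10.7, 4.37 and 4.88 CPM in control tumors and at 6.31, 8.93 and 6.67 CPM in SS tumors. Control tumor 1 was the highest of all 6 and the other control tumors were the lowest, and the log2 fold change was 0.14 (SE 0.39, 95% interval -0.76 to 1.04, edgeR adjusted p = 0.956). Ptger4 counts were 7.80, 3.81 and 1.48 times Ptger2 counts in control tumors and 3.89, 6.04 and 2.69 times in SS tumors (exact permutation p = 0.9).

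The Ptger4 total hid a large spread in its transcripts. NM_001136079, whose coding sequence starts in the second exon as printed above, held 70.7%, 89.8% and 4.24% of the estimated Ptger4 counts in control tumors and 0.32%, 2.99% and 28.2% in SS tumors. Its level was 7.60, 3.92 and 0.21 CPM in control tumors and 0.020, 0.27 and 1.88 CPM in SS tumors. The values of SS tumors 1 and 2 rest on 0.28 and 2.24 estimated counts, under the floor of 3, and are not resolved. NM_008965 was at 3.14, 0.45 and 4.67 CPM in control tumors and at 6.29, 8.67 and 4.79 CPM in SS tumors. NM_008965 did not overlap between the groups, as for 6.15% of the 15132 transcripts tested in this direction, whereas NM_001136079 did, since control tumor 3 lay below SS tumor 3. The mean share of NM_001136079 was 54.9% ± 44.9 in control and 10.5% ± 15.4 in SS tumors (SD, n = 3, exact permutation p = 0.2). The difference of -44.4 percentage points was -27.0 without control tumor 2 and -69.8 without control tumor 3. In edgeR's test over 15132 transcripts, the log2 fold change was -2.46 (SE 1.60, adjusted p = 0.935) for NM_001136079 and 1.25 (SE 0.77, adjusted p = 0.933) for NM_008965. The deposited split between transcripts is an estimate from reads that mostly fit both, since only the 5′ ends differ, and its own error is not given.

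Pla2g4a, the other gene with 2 transcripts, had a more even split. NM_001305632 held 44.2%, 25.8% and 43.8% of its counts in control tumors and 51.3%, 51.3% and 19.2% in SS tumors. SS tumors held both the highest and the lowest shares (exact permutation p = 0.6). The log2 fold changes were -0.36 (SE 0.51) for NM_001305632 and -0.33 (SE 0.36) for NM_008869, so neither transcript stood apart.

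**Figure D3:**
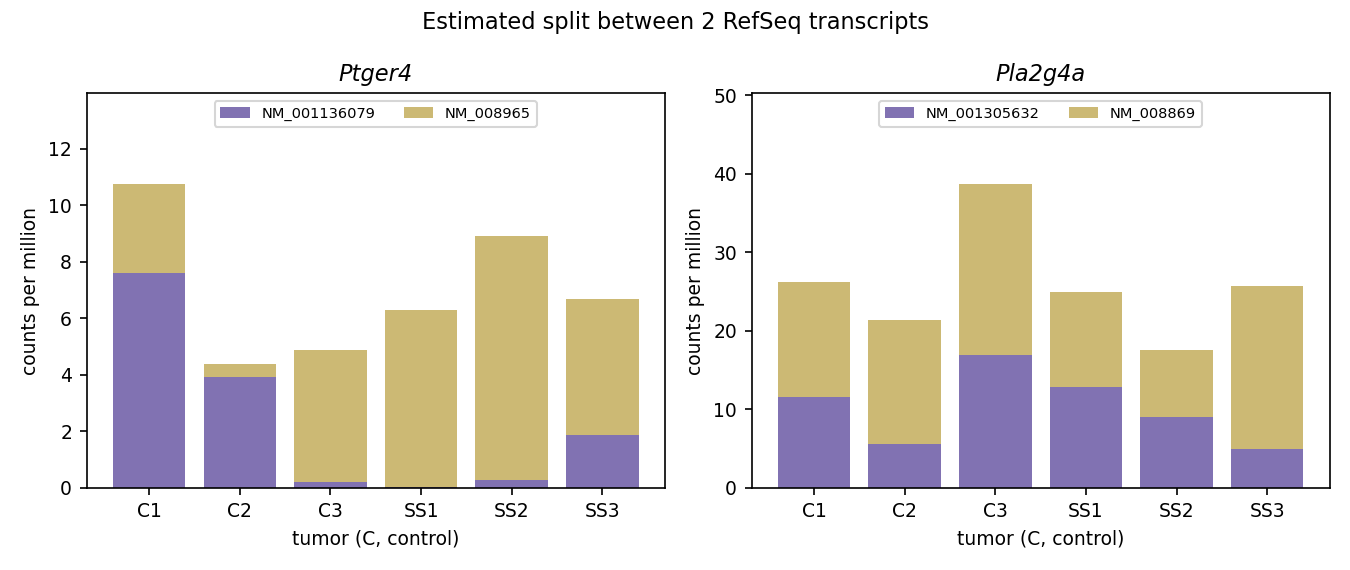
CPM of the 2 RefSeq transcripts of Ptger4 and of Pla2g4a, stacked for each control (C) and SS-treated tumor. NM_001136079 makes up 70.7% and 89.8% of Ptger4 in control tumors 1 and 2 and 28.2% or less in the other 4 tumors.

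The genes whose levels followed Ptgs1 most closely over the 6 tumors differed from those that followed Ptgs2. Likeness was the root mean square difference of log2 CPM after centring each gene on its own mean, over 7643 genes with a mean of at least 5 CPM. Ptgs1 itself varied by 0.62 on this scale. The genes nearest to it were Casc4 (0.138), the signalling adaptor Shc4 (0.182), the leukotriene C4 synthase Ltc4s (0.186), the peroxisomal import receptor Pex7 (0.200) and the oxysterol-binding protein Osbp2 (0.213). Ltc4s was at 3.16, 7.76 and 9.31 CPM in control tumors and at 7.25, 2.74 and 3.88 CPM in SS tumors, high in control tumors 2 and 3 and in SS tumor 1. Ptgs2 itself varied by 0.76 and lay under the cut of 5 CPM, with means of 4.98 and 3.45 CPM in control and SS tumors. Those of Ptgs1 were 36.5 and 23.6 CPM. The genes nearest to Ptgs2 were less close, and the part of counting noise in this was not tested. They were the Hsp70 gene Hspa1b (0.362), the Hsp40 co-chaperone Dnajb4 (0.382), the glycolytic regulator Pfkfb3 (0.382), the phosphatase Ptp4a1 (0.391) and the Hsp70 gene Hspa1a (0.405). Hspa1a and Hspa1b are near-identical copies, so how counting divided their reads is uncertain. All of these values come from the same 6 libraries and describe likeness only.

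**Figure D4:**
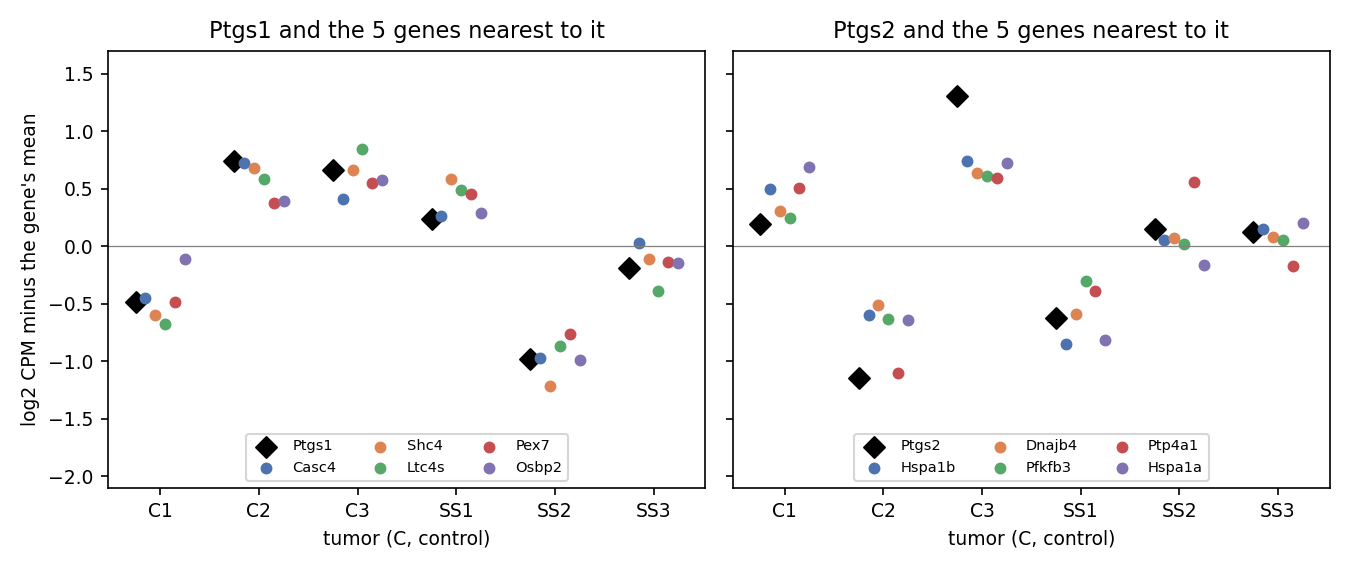
Log2 CPM minus each gene's own mean in the control (C) and SS-treated tumors, for Ptgs1 (left) and Ptgs2 (right) as black diamonds and the 5 genes nearest to each as dots. Ptgs1 is lowest in SS tumor 2 and Ptgs2 in control tumor 2, and the nearest genes are also below their own means there.

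The other genes of the eicosanoid pathway were described from a list of 55 genes, of which 34 were in the table and 25 were tested. At an unadjusted p under 0.05, 1 was higher in SS tumors, where 3.19% of all genes were higher, and 3 were lower, where 3.16% of all genes were lower. Together these were 16.0% of the 25, against 6.36% of all genes, and none passed adjustment. Of the 25, 9 had a log2 fold change above 0 and 16 below, with a median of -0.10. Over all genes tested, 50.3% were below 0 and the median was -0.0009. Daglb, a diacylglycerol lipase that makes an endocannabinoid from which arachidonic acid can be released, was at 10.0, 7.71 and 7.83 CPM in control tumors and at 16.2, 16.1 and 13.4 CPM in SS tumors. All SS tumors were above all control tumors, as for 6.51% of all genes, with a log2 fold change of 0.84 (SE 0.20) and an unadjusted edgeR p of 0.0029 (adjusted p = 0.679). The lower genes were Ptgis, Cbr1 and Ptgfrn, and none of the 3 overlapped between the groups, as for 6.4% of all genes in this direction.

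Ptgis, the prostacyclin synthase, was at 3.87, 8.30 and 4.96 CPM in control tumors and at 2.32, 3.69 and 2.95 CPM in SS tumors. Its log2 fold change was -0.94 (SE 0.39) with an unadjusted edgeR p of 0.042 (adjusted p = 0.771). Cbr1, a carbonyl reductase that can convert PGE2 to prostaglandin F2α, was at 10.0, 10.4 and 13.7 CPM against 6.31, 9.53 and 6.16 CPM, with a log2 fold change of -0.64 (SE 0.26) and an unadjusted edgeR p of 0.037 (adjusted p = 0.771). Ptgfrn, which encodes a negative regulator of the prostaglandin F2α receptor, was at 160.0, 166.0 and 231.4 CPM against 130.0, 125.1 and 159.2 CPM, with a log2 fold change of -0.43 (SE 0.17) and an unadjusted edgeR p of 0.036 (adjusted p = 0.771). The number of list genes with an unadjusted p under 0.05 was 2 without control tumor 2, 1 without control tumor 3 and 2 without SS tumor 3. Over all genes, 554, 516 and 675 had an unadjusted edgeR p under 0.05 in these runs, against 693 with all tumors. The number of list genes was 2 after thinning every library to the smallest depth and 1 with quantile normalization and a t statistic. Over all genes, the matching numbers were 638 and 740.

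By role, Ptgis and Cbr1 were 2 of 5 tested synthases of other prostanoids, Daglb 1 of 7 phospholipases and related lipases, and Ptgfrn 1 of 2 genes listed with the receptors, against 3.16% of all genes lower and 3.19% higher. These groups are small, and the receptor gene tested in the last of them, Ptgir, had an unadjusted edgeR p of 0.770. None of the 4 transport and breakdown genes and none of the 7 lipoxygenase branch genes had an unadjusted p under 0.05. The most abundant of the remaining genes did not differ beyond the spread between tumors. Alox5, the 5-lipoxygenase that diverts arachidonic acid into leukotrienes, was at 53.0 ± 6.92 CPM in control and 44.3 ± 10.7 CPM in SS tumors (SD, n = 3), and its partner Alox5ap was at 11.4 ± 2.02 and 13.6 ± 2.54 CPM. The thromboxane synthase Tbxas1 was at 36.6 ± 7.84 and 41.3 ± 12.5 CPM, and the leukotriene A4 hydrolase Lta4h at 30.0 ± 5.85 and 28.2 ± 7.51 CPM. The prostaglandin transporter Slco2a1 was at 20.3 ± 1.57 and 19.7 ± 4.47 CPM, and the calcium-independent phospholipase Pla2g6 at 16.7 ± 1.10 and 18.8 ± 1.78 CPM. Ptger3, the remaining PGE2 receptor gene, was named after its values had been seen. It did not pass the filter, at 1.66, 0.34 and 0.21 CPM in control tumors and 0.072, 0.48 and 0 CPM in SS tumors, of which the last allows up to 0.249 CPM.

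**Figure D5:**
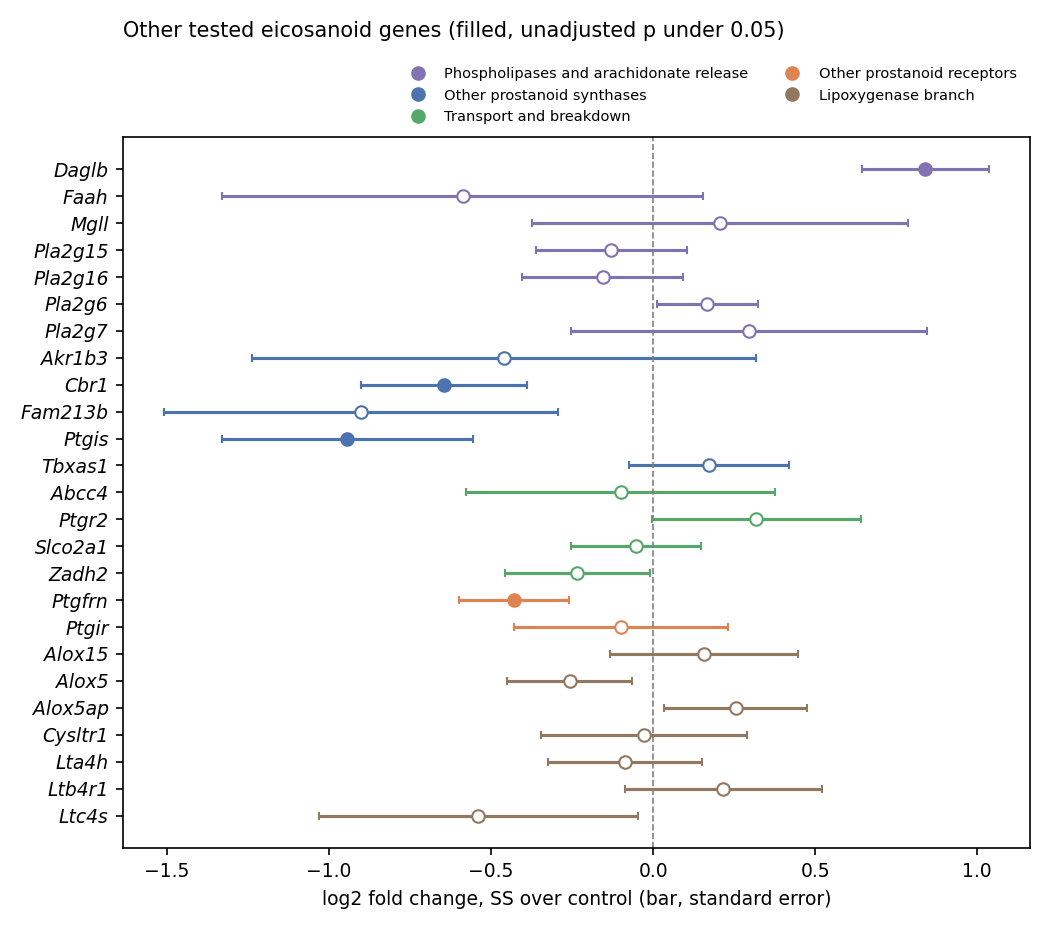
Log2 fold change (SS over control, bar for the standard error) of the 25 tested genes of the wider eicosanoid pathway, coloured by role, with filled dots for an unadjusted p under 0.05. Daglb is the filled gene above 0, and Ptgis, Cbr1 and Ptgfrn are the filled genes below 0, none of them past adjustment.

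Genes that PGE2 and cAMP are known to induce in other cells were read as a second list, of which 17 of 20 were in the table and 15 were tested. Of these, 5 had a log2 fold change above 0 and 10 below, with a median of -0.26. Over all genes tested, 50.3% were below 0 and the median was -0.0009. On this list, 1 gene had an unadjusted edgeR p under 0.05, or 6.67% against 6.36% of all genes, with none past adjustment. That gene was Pde4d, a phosphodiesterase that breaks down cAMP, at 18.5, 15.3 and 15.2 CPM in control tumors and 18.8, 27.5 and 20.9 CPM in SS tumors (log2 fold change 0.46, SE 0.19, edgeR adjusted p = 0.771). The share of called genes was thus near that of all genes. The most abundant genes of the list were Thbs1, an inhibitor of vessel growth, at 1069.7 ± 507.5 and 710.7 ± 126.5 CPM (mean ± SD, n = 3, control and SS), and Vegfa, the vessel growth factor, at 695.4 ± 139.9 and 575.9 ± 39.0 CPM. The AP-1 gene Fosl2 was at 450.3 ± 74.6 and 406.3 ± 85.0 CPM, and the phosphatase gene Dusp1 at 77.1 ± 20.5 and 74.1 ± 18.7 CPM. The clock gene Per1 was at 38.0 ± 5.40 and 43.8 ± 8.16 CPM, and the nuclear receptor gene Nr4a2 at 20.7 ± 4.31 and 25.5 ± 5.49 CPM. All 6 overlapped between the groups.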

How the data were processed

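RNA was measured in 6 C0321 tumors, 3 control and 3 SS-treated, as stranded, polyadenylated libraries read from both ends for 75 nucleotides. Deposited by the authors were estimated counts for 20648 RefSeq transcripts, not normalized, after removing entries with very low counts. Every deposited transcript had at least 10 counts over the 6 tumors. The submitters' processing notes name mm10 (GRCm38), CASAVA 1.8.1, STAR 2.5.3a and Bowtie2 2.2.5. The counting tool is not given in the sources used here.

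Transcripts were summed by symbol (22 symbols turned into dates were restored) and rounded. Genes were tested with edgeR 4.0.16 (R 4.3.3) by its quasi-likelihood test after filterByExpr and TMM scaling. Adjustment was Benjamini-Hochberg over 10902 genes, and standard errors were the log2 fold change over the square root of F. Single values were compared by two-sided exact permutation tests in scipy 1.17.1. Ratios had 0.5 counts added. Alternatives used DESeq2 1.42.0 and limma 3.58.1. CPM per kb used exon lengths within the deposited coordinates.

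The members and lists were chosen with earlier results of these data known. Named genes are all members, list genes with an unadjusted p under 0.05, at most 6 others per list by mean CPM, and the 5 genes nearest to Ptgs1 and to Ptgs2. Cell type markers come from lists of their own, and Ptger3 was added after its values had been seen.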

Additional observations from a re-analysis of the deposited data

How the results depend on the processing

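No adjusted call among the PGE2 pathway genes was gained under any alternative run. Across all genes, edgeR gave 0 genes with an adjusted p under 0.05 (693 unadjusted), whereas DESeq2 gave 35, and 37 with no filter on low counts. Leaving out 1 tumor kept 0 adjusted and gave 516 to 877 unadjusted genes. Among the 10 genes, 1 had an unadjusted p under 0.05 in edgeR with no filter and in DESeq2 with no filter, Hpgd in both cases, and 0 to 1 with 1 tumor left out. That gene was Ptgs1 without control tumor 1 (log2 fold change -0.92, range -0.94 to -0.37 over all tumors left out), and Hpgd without control tumor 3 or SS tumor 3, where Hpgd passed the filter only through the control tumors in which it was high, so that its p there carries no weight. Among the other eicosanoid genes, 4 became 1 with quantile normalization and a t statistic, 2 with thinned libraries, and 1 to 4 with 1 tumor left out. Over all genes, 693 became 740, 638 and 516 to 877 in the same runs.

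Pla2g4a and Ptges2 kept their sign but ran from -0.51 to -0.058 and from -0.47 to -0.041 (log2 fold change) with 1 tumor left out, and the median over the 9 genes from -0.31 to -0.041. With all tumors kept, Ptgs2 was at -0.068 with limma-voom, -0.23 with quantile normalization and a t statistic and -0.29 with the replicate block. The sign of several small differences was not stable. With 1 tumor left out, log2 fold changes ran from -0.97 to 0.27 for Ptgs2, -0.081 to 0.46 for Ptges, -0.31 to 0.074 for Ptges3, -0.21 to 0.13 for Ptger1, -0.35 to 0.57 for Ptger2 and -0.091 to 0.65 for Ptger4. The matching differences in mean CPM ran from -3.24 to 0.57, -0.082 to 0.53, -2.47 to 0.69, -1.63 to 1.07, -0.49 to 0.59 and -0.51 to 2.68. The log2 ratio difference ran from -0.48 to 0.93 for Ptgs2 over Ptgs1 and from -0.45 to 0.75 for Ptger4 over Ptger2, and from -4.66 to -2.07 for Hpgd over the PGE synthases (-2.07 without control tumor 1, -4.66 without control tumor 3). The difference in the NM_001305632 share of Pla2g4a ran from -3.42 to 13.3 percentage points, and that in the NM_001136079 share of Ptger4 from -69.8 to -27.0. The single random draw used for thinning gave 0.0016 for Ptger1 and 0.23 for Ptges2. Ptger2 was at 0.13 with limma-voom and 0.087 with quantile normalization and a t statistic. Testing transcripts gave -2.46 for Ptger4 NM_001136079. The cause of these reversals was not tested.

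The labels do not say whether replicate numbers pair the tumors, and the main test treated them as unpaired. The deviations of same-numbered tumors from their group means correlated at 0.116, 0.021 and 0.077 over genes, not all above 0.1. Differently numbered tumors were not compared in this way, so these values cannot settle whether the tumors were paired. With the replicate block, 643 genes had an unadjusted p under 0.05 and 0 an adjusted one, and Ptger2 was at 0.040. Thinning, DESeq2 without a filter, and leaving out tumors for shares, ratios and differences in mean CPM were chosen after seeing the data. Hpgd counts in SS tumors were 0, 0 and 3. SS tumor 1 had 13696665 counts in all and 0 for Hpgd, whereas control tumor 1 had 12314368 in all and 45 for Hpgd. The part of depth in the Hpgd values was not tested.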
